A study of Homo sapiens with 12 samples.

Results

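The ATP-binding cassette (ABC) family was taken as every gene symbol made of ABC, a subfamily letter from A to G and a number, which gave 45 of the 20114 symbols in the RNA tables. For ABCB1 the H3K27ac peaks in a window of 300000 bases of hg19 chromosome 7 were listed as well. RNA and H3K27ac, a histone acetylation of active promoters and enhancers, were measured in cabozantinib-resistant Caki-1 cells and in wild-type Caki-1 cells, called parental here. Caki-1 cells come from a human renal carcinoma and are widely cultured, and cabozantinib blocks several receptor tyrosine kinases, MET and VEGF receptors among them. Of 12 samples, 2 resistant and 2 parental RNA libraries and 2 resistant and 2 parental H3K27ac libraries were used, and 4 input libraries were not used here. Resistance was raised in McCoy's medium by cabozantinib at 5 µM and later up to 20 µM, over 2 months, followed by maintenance in 10 µM, while RPMI was the medium of the parental cells. Drug, medium and selection therefore differ together between the lines and cannot be told apart. Both lines share the Caki-1 background, and the labels do not say whether the resistant line is 1 clone or whether replicates came from separate cultures. The p-values measure only the spread between these libraries, which may be technical.

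ABC proteins bind and hydrolyse ATP at a pair of conserved nucleotide-binding domains. Most are membrane transporters that move drugs, conjugated metabolites, lipids, sterols, bile salts or peptides across the plasma membrane or an organelle membrane, while the ABCE and ABCF proteins have no membrane domain and act in translation. In the kidney, P-glycoprotein (ABCB1) and several ABCC proteins sit in the membranes of proximal tubule cells and export drugs and organic anions. ABCB1, ABCC1 and ABCG2 are the members best known for lowering drug levels in cultured tumour cells.

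Estimated counts summed to 14664723 and 12851393 in the resistant RNA libraries and to 10605113 and 10584083 in the parental ones. The resistant pair lay further apart than the parental pair, with a median absolute difference of 0.33 against 0.10 on the log2 scale over the 12792 tested genes. The renal transcription factor PAX8 stood at 132.6 and 132.6 TPM (a level corrected for transcript length and library size) in the resistant line and at 210.2 and 204.8 TPM in the parental line. Of the 12 renal markers listed, PAX2 and LRP2 were at 0 in all 4 libraries and CA9 was at 0.90 TPM or less. CDH2 was the 1 of the 9 tested renal markers called, lower (log2 fold change -0.93, adjusted p = 0.0452), where 3.41% of all tested genes were called lower. That call ended with library totals (0.0646), with the stricter filter (0.0530), on log2(TPM + 1) and log2(TPM + 0.1) (0.109 and 0.118) and without parental replicate 1 (0.225) or 2 (0.260). MME (-1.07, adjusted p = 0.0791) and VIM (-0.48, adjusted p = 0.110) had lower values in both resistant libraries than in both parental ones. Of 5 measured endothelial markers 4 stayed under 2 TPM, with CDH5 at 0, while EGFL7 stood at 38.1 and 42.3 TPM in the resistant line and at 40.05 and 42.65 TPM in the parental line. The pan-leukocyte marker PTPRC was at 0.03 TPM or less. The 8 fibroblast and pericyte markers summed to 57.3 and 50.5 TPM in the resistant line and to 71.6 and 76.9 TPM in the parental line. ACTA2 was the largest part, at 44.0 and 38.7 TPM in the resistant line and 37.8 and 37.95 TPM in the parental line. PDGFRA was at 0.07 TPM or less. DCN, with 16 and 3 counts in the resistant libraries and 123 and 137 in the parental ones, and RGS5 fell. Each of these 2 calls held in 13 of 15 alternatives, but DCN needed the parental libraries to pass the count filter. Of 8 blood markers 7 stayed under 2 TPM, and CD68 fell, a call that ended without parental replicate 1 (adjusted p = 0.130) or 2 (0.187). The part of these markers in the results on ABC genes was not tested.

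Across the family 3 of the 31 members that passed the count filter fell in the resistant line and 0 rose at an adjusted p under 0.05. The 3 were ABCB1, the drug efflux pump P-glycoprotein, ABCC9, the sulfonylurea receptor that regulates ATP-sensitive potassium channels of muscle, and ABCA3, a phospholipid transporter of lamellar bodies. Among all tested genes 6.37% were called, 3.41% lower and 2.96% higher, against 9.68% of the tested members. At an unadjusted p under 0.05 there were 5 lower and 4 higher members, where 13.6% of all tested genes were lower and 13.4% higher. With DESeq2 the 3 fell and 1 member rose, where 9.28% of the genes with an adjusted p were called, 5.14% lower and 4.14% higher. Another 7 members, ABCA4, ABCA6, ABCA9, ABCB5, ABCC11, ABCG1 and ABCG4, were below the filter, and ABCA8, ABCB11, ABCC8, ABCC12, ABCD2, ABCG5 and ABCG8 had 0 counts in all 4 libraries. A count of 0 allows a level of up to 0.194 to 0.292 CPM (counts scaled to a common library size) in these libraries, for counting error only. In RNA from bulk cultures, fewer cells that express a gene and less RNA per cell cannot be told apart.

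The counts of members called depended on the libraries. Without resistant replicate 1 there were 8 lower and 4 higher members, and without resistant replicate 2 there were 5 lower and 11 higher. Without parental replicate 1, and likewise without parental replicate 2, there were 2 lower and 0 higher, ABCB1 and ABCC9. In each of these fits the lone library was assumed to vary like the pair. Without a resistant library the spread came from the parental pair alone, which was the tighter pair. A pass in those fits, here and below, is weak evidence of a change in that gene. Over all tested genes 52.8% were called without resistant replicate 1, 35.1% without resistant replicate 2, 3.22% without parental replicate 1 and 3.07% without parental replicate 2. With the replicate number as a block the members called were 4 lower and 2 higher, and 14.7% of all tested genes were called. ABCB1 passed in each of the 15 alternatives.

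**Figure D1:**
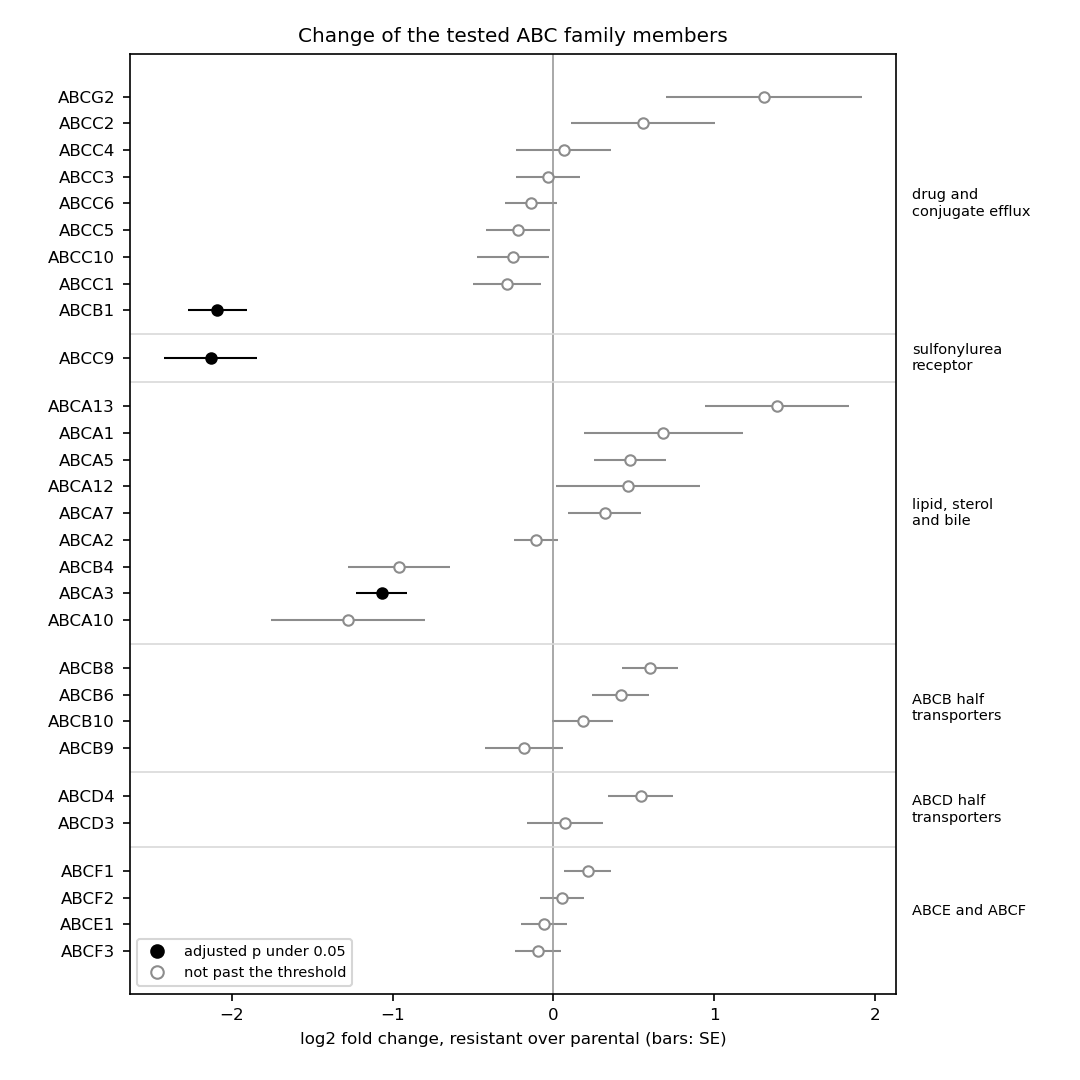
Log2 fold change (resistant over parental) of 29 tested ABC members, grouped by role, with bars for the standard error. ABCB1, ABCC9 and ABCA3 are the filled points at -2.09, -2.13 and -1.07, and the open points did not pass the threshold.

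ABCB1 had 99 and 87 counts in the resistant libraries and 297 and 280 in the parental libraries, which had fewer counts in all. Its normalised read count was 6.40 and 6.76 CPM (on the TMM-scaled library size) in the resistant line and 28.9 and 27.1 CPM in the parental line. All resistant values lay below all parental ones, and the gap between the lines was wider than the gap within either pair. The mean was 6.58 ± 0.253 CPM in the resistant line and 28.0 ± 1.26 CPM in the parental line (SD, n = 2 each), 4.26-fold lower, and the log2 fold change was -2.09 ± 0.18 (SE, adjusted p = 0.00592). Over the alternatives its log2 fold change ran from -2.14 to -1.69, the smallest being that on log2(TPM + 1), and its adjusted p was at most 0.0250. By length-corrected level ABCB1 stood at 1.97 and 1.70 TPM in the resistant line and at 8.42 and 7.85 TPM in the parental line, the 22nd highest of the 45 members by mean TPM.

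RefSeq lists 2 start sites of ABCB1, and their windows of 250 bases before and 50 after the start are shown because ABCB1 fell in every alternative. Both are read 5′ to 3′ along the gene, which is on the minus strand, in GRCh38.p14. Capitals mark matches to the motifs searched, on either strand: the CCAAT box, the GC box bound by SP1 (spelt GGGCGG), the AP-1 site (spelt TGANTCA) and the TATA box (spelt TATAAA).
ABCB1 start, chr7:87600835-87601134: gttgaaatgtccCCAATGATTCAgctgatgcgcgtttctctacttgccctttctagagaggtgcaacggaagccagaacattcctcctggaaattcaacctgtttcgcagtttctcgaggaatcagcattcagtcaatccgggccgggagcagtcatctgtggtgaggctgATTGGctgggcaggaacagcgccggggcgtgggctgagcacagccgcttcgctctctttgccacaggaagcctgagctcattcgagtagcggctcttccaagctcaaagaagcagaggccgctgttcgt
ABCB1 upstream start, chr7:87713246-87713545: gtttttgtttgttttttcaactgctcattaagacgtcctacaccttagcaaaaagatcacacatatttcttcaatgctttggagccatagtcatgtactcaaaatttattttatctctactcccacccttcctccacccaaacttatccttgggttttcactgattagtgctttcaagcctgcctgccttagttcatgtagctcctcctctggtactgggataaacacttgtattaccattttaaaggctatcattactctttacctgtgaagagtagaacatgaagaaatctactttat
The first window holds 2 CCAAT matches, 1 of them on the opposite strand at bases 172 to 176 of the window, 79 bases before the start. An AP-1 match overlaps the other CCAAT match by 1 base. The inverted CCAAT box of this promoter is known as a site of the factor NF-Y. The upstream window has none of the 4 motifs and 1 CpG, against 16 in the first window and a median of 14 over all 35116 RefSeq windows. CCAAT was found in 34.6% of all windows, GGGCGG in 45.0%, TGANTCA in 7.71% and TATAAA in 11.5%. Of the 45 members 35 had a window, and of their 53 windows 12 held CCAAT and 25 held GGGCGG. These are letter matches and say nothing of binding in these cells.

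H3K27ac at the ABCB1 window gave 0 peaks in resistant replicate 1, 1 in resistant replicate 2 and 2 in each parental library. The peak of resistant replicate 2 was at chr7:87103891-87104267 (hg19, as all peaks here). The peaks of parental replicate 1 were at chr7:87104667-87105313 and chr7:87193189-87194105, and those of parental replicate 2 at chr7:87103482-87105313 and chr7:87134782-87135302. Merged by overlap these made 3 regions, of which 1 was in 3 lists and the other 2 in 1 parental list each. The resistant peak lay inside the first parental replicate 2 peak but 399 bases away from that of parental replicate 1, so only the longer peak joined them. None of the 3 regions was in both resistant and no parental list (gained), and none in both parental and no resistant list (lost). Over the genome 3.43% of 89076 regions were gained and 3.92% lost, and 49.9% were in 1 list only.

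By the authors' score, which ranks peaks within a list and has no stated unit, the window's peaks were of middle or low rank. The first peak of parental replicate 1 scored 9.51, with 34.0% of its list above it, and that of parental replicate 2 scored 6.98, with 44.6% above it. The peak of resistant replicate 2 scored 6.22, with 57.6% of its list above it. The 2 peaks found in 1 parental library alone scored 4.98 and 4.97, with 66.0% and 62.6% above them, and neither remained at a score of 5 or more. The next region with a peak in all 4 lists began 310730 bases after the last of these, beyond the window, at chr7:87504836-87507079. Chromosome 7 had 436 segments of 300000 bases with a peak in any list. In these the median was 3.5 and 4 peaks in the resistant lists and 4 and 5 in the parental lists, and 28.7% to 43.8% held 2 or fewer. Segments empty in all 4 lists were left out. With them that share would be higher and the medians no higher. The lost count became 1 without resistant replicate 2, 1 without parental replicate 1 and 2 without parental replicate 2, where 11.3%, 23.5% and 16.9% of all regions were lost. No gene annotation in hg19 was used here, so the peaks were not assigned to ABCB1 or its neighbours, and the promoter windows above, in GRCh38, were not set against them.

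**Figure D2:**
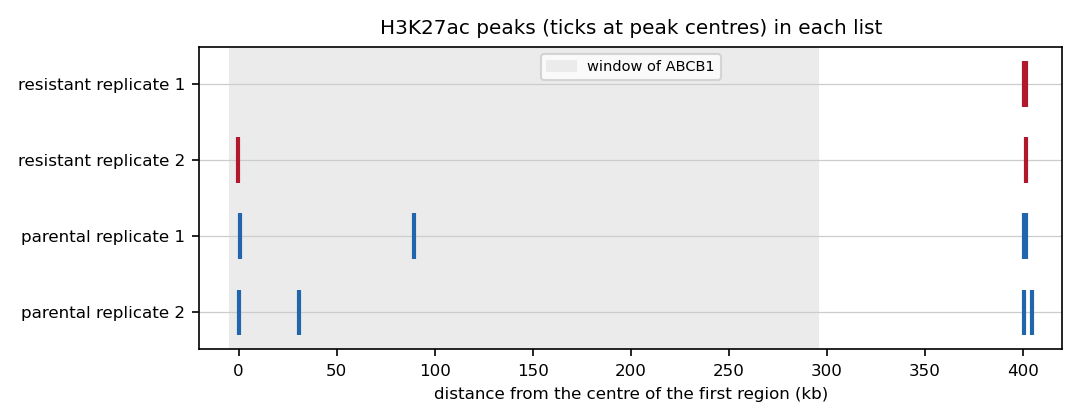
H3K27ac peaks of each of the 4 lists as ticks at their centres, by distance in kb from the centre of the first merged region, with the ABCB1 window shaded. The resistant lists hold 0 and 1 peaks in the window and the parental lists 2 each, and all 4 lists have a peak beyond it.

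The genes next to ABCB1 did not pass the main test. Of the 10 nearest tested genes in gene order, 5 on each side, 0 passed in either direction, where 6.37% of all tested genes did. Their log2 fold changes ran from -0.96 to 0.35, with a median of -0.36. At an unadjusted p under 0.05 DMTF1 (log2 fold change -0.52), TMEM243 (-0.61), ABCB4 (-0.96) and ADAM22 (-0.79) were lower and none was higher. Over all tested genes 13.6% were lower and 13.4% higher at that level. ABCB4, the adjacent phosphatidylcholine floppase of bile and the closest relative of ABCB1, stood at 3.81 and 5.59 CPM in the resistant line and at 7.50 and 10.8 CPM in the parental line. Both resistant values were below both parental ones, with a log2 fold change of -0.96 ± 0.32 (adjusted p = 0.125). It passed with the replicate block (adjusted p = 0.0368), with that block and the length correction together (0.0397) and without resistant replicate 2 (0.0324). ABCB1 and ABCB4 are similar in sequence, so estimated counts can be shared between them. TMEM243 had a log2 fold change of -0.61 (adjusted p = 0.0742) and SRI, a calcium-binding protein, of -0.21 (adjusted p = 0.488). Both passed as lower with the length correction, TMEM243 at -0.83 (adjusted p = 0.0170) and SRI at -0.45 (0.0306), and likewise with the block added (0.0029 and 0.0455). TMEM243 was also lower with either resistant library left out. SRI had a log2 fold change of -0.42 with resistant replicate 2 left out, against -0.02 with resistant replicate 1 left out. RUNDC3B, which overlaps ABCB1, was below the filter.

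Among drug and conjugate pumps ABCB1 was the member that passed. Of 12 members in this role 9 were tested, 1 fell, 0 rose and 8 did not pass, where 3.41% of all tested genes fell and 2.96% rose. The median log2 fold change was -0.14, against 0.02 over all tested genes. ABCC3, an exporter of glucuronide conjugates, was the most abundant member of the family at 160.5 and 93.8 TPM in the resistant line and 138.7 and 128.3 TPM in the parental line. It made up 25.05% and 20.1% of the summed family TPM in the resistant line and 25.12% and 23.7% in the parental line. The resistant values lay on both sides of the parental ones, and the log2 fold change was -0.03 ± 0.20 (adjusted p = 0.932). Leaving out resistant replicate 1 gave -0.30, and leaving out resistant replicate 2 gave 0.19, so the sign depended on the resistant library kept.

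ABCC1, an exporter of glutathione conjugates, stood at 178.7 and 119.7 CPM in the resistant line and at 188.3 and 176.3 CPM in the parental line, with a log2 fold change of -0.29 ± 0.21 (adjusted p = 0.425). ABCC5, an exporter of cyclic nucleotides, stood at 77.6 and 55.1 CPM in the resistant line and 75.5 and 79.2 CPM in the parental line (log2 fold change -0.22, adjusted p = 0.515). Of the 15 alternatives each passed as lower in 1, the fit that left out resistant replicate 1 (adjusted p = 0.00217 for ABCC1 and 0.00615 for ABCC5). ABCC4, which exports nucleotides and prostanoids, was at 89.7 and 47.8 CPM in the resistant line, the first above and the second below the 66.1 and 65.6 CPM of the parental line. With resistant replicate 1 left out its log2 fold change was -0.46, and with resistant replicate 2 left out it was 0.44. ABCC10 had a log2 fold change of -0.25. ABCC6, for which pseudogene copies make the count uncertain, had one of -0.14.

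ABCG2, the breast cancer resistance protein, had 98 and 26 counts in the resistant libraries and 21 and 14 in the parental libraries. At 6.34 and 2.02 CPM in the resistant line and 2.04 and 1.36 CPM in the parental line the groups overlapped, and its log2 fold change of 1.31 ± 0.61 did not pass (adjusted p = 0.231). ABCC2, an apical exporter of conjugated organic anions in liver and kidney, stood at 8.08 and 3.42 CPM in the resistant line and 3.70 and 4.17 CPM in the parental line (log2 fold change 0.56, adjusted p = 0.459). In both genes resistant replicate 1 was the high library, and with resistant replicate 2 left out both passed as higher, ABCG2 at 1.88 (adjusted p = 0.0111) and ABCC2 at 1.03 (0.0205). ABCG2 also passed with block and length correction together (1.23, adjusted p = 0.0485). ABCC11 and ABCB5 had 3 counts or fewer in any library.

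**Figure D3:**
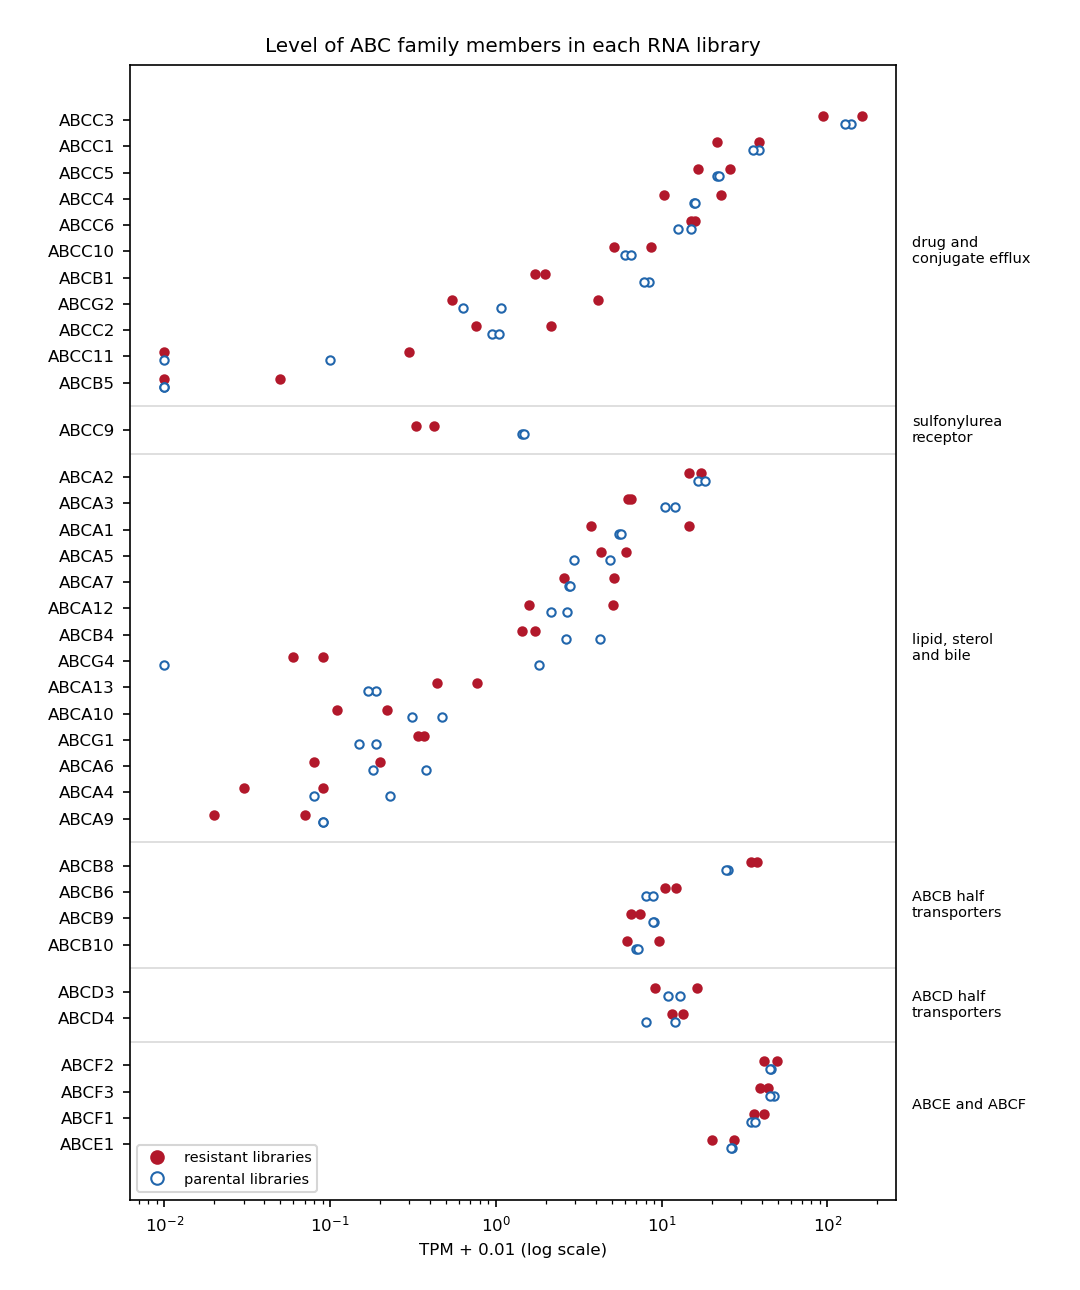
TPM (log axis, 0.01 added) of 36 ABC members with any count, grouped by role, with filled points for the resistant and open points for the parental libraries. ABCC3 is highest at 93.8 to 160.5 TPM, and the ABCB1 values of 1.97 and 1.70 TPM in the resistant line are left of 8.42 and 7.85 TPM in the parental line.

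ABCC9 had 27 and 29 counts in the resistant libraries and 83 and 97 in the parental libraries. Its level was 1.75 and 2.25 CPM in the resistant line and 8.08 and 9.40 CPM in the parental line, without overlap. The mean was 2.00 ± 0.359 CPM in the resistant line and 8.74 ± 0.934 CPM in the parental line (SD, n = 2 each), 4.37-fold lower, and the log2 fold change was -2.13 ± 0.29 (adjusted p = 0.0170). The call held without each library in turn and ended on log2(TPM + 1) (log2 fold change -0.84, adjusted p = 0.0872) and log2(TPM + 0.1) (-1.74, adjusted p = 0.0927), where its TPM was 0.32 and 0.41 in the resistant line and 1.43 and 1.47 in the parental line. KCNJ8, a pore subunit that assembles with ABCC9 and its neighbour on chromosome 12, stood at 14.8 and 20.5 CPM in the resistant line and 29.7 and 32.4 CPM in the parental line (log2 fold change -0.82, adjusted p = 0.0777). The related receptor ABCC8 had 0 counts. Of the 10 nearest tested genes of ABCC9 0 were called, where 6.37% of all tested genes were.

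ABCA3 stood at 24.7 and 25.6 CPM in the resistant line and at 56.2 and 49.3 CPM in the parental line, again without overlap. The mean was 25.2 ± 0.663 CPM in the resistant line and 52.8 ± 4.84 CPM in the parental line (SD, n = 2 each), 2.10-fold lower, and the log2 fold change was -1.07 ± 0.16 (adjusted p = 0.0225). The call ended without parental replicate 1 (adjusted p = 0.189), without parental replicate 2 (0.0729) and on log2(TPM + 1) and log2(TPM + 0.1) (0.129 and 0.128). Of the 10 tested genes nearest to ABCA3 on chromosome 16, 2 rose and 0 fell, ECI1, an enzyme of fatty acid oxidation, by a log2 fold change of 0.99 and AMDHD2 by 0.97, where 2.96% of all tested genes rose.

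The start windows of ABCA3 and ABCC9, the other members that fell, are given in the same form (GRCh38.p14, minus strand, capitals as for ABCB1).
ABCA3 start, chr16:2340679-2340978: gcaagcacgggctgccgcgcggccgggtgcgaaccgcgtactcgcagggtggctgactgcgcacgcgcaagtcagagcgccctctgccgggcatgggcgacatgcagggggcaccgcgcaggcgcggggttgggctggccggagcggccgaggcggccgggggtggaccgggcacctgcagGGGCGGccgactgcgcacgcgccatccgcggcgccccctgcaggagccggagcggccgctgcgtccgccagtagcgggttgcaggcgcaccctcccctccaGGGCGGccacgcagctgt
ABCC9 start, chr12:21941377-21941676: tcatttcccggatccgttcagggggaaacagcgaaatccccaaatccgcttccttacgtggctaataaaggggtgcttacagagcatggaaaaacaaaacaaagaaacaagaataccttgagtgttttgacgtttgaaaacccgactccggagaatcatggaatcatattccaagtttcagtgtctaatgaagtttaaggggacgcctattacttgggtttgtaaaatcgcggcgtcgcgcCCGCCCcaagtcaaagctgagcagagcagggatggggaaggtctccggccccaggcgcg
ABCA3 has 2 GC boxes and 42 CpGs, more than 94.2% of all windows, and ABCC9 has 1 GC box on the opposite strand and 18 CpGs. None of the 4 motifs was found in a window of each of ABCB1, ABCA3 and ABCC9, since the CCAAT and AP-1 matches were in ABCB1 and the GC boxes in the other two.

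Of the 18 lipid, sterol and bile transporters 9 were tested, 1, ABCA3, fell, 0 rose and 8 did not pass, with a median log2 fold change of 0.32. Over all tested genes 3.41% fell and 2.96% rose. ABCA1, which loads cholesterol onto apolipoprotein, was the member whose resistant libraries lay furthest apart. It stood at 110.4 and 34.6 CPM in the resistant line and at 44.4 and 46.0 CPM in the parental line, so resistant replicate 1 was above and resistant replicate 2 below both parental libraries. The log2 fold change was 0.68 ± 0.49 (adjusted p = 0.414). With resistant replicate 1 left out it was -0.38, and with resistant replicate 2 left out it was 1.28. ABCA1 passed as higher with block and length correction together (0.76, adjusted p = 0.0203). ABCA12, a lipid transporter of skin, had the same order, at 33.6 and 12.6 CPM in the resistant line and 14.8 and 18.8 CPM in the parental line, and passed as higher with resistant replicate 2 left out (0.99, adjusted p = 0.00969).

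ABCA13 stood at 4.65 and 2.72 CPM in the resistant line and at 1.07 and 1.74 CPM in the parental line, higher without overlap, with a log2 fold change of 1.39 (adjusted p = 0.119). It passed with the replicate block (0.0338), with the length correction (0.0350), with both (0.0187) and with resistant replicate 2 left out (0.0218). ABCA10 was lower without overlap at 0.905 and 0.544 CPM in the resistant line and 2.14 and 1.45 CPM in the parental line (log2 fold change -1.28, adjusted p = 0.157). It had only 14 and 7 counts in the resistant libraries and 22 and 15 in the parental ones, and needed the parental libraries to pass the filter. It is nevertheless among the members counted as lower in both resistant libraries and as lower by unadjusted p. ABCA2, an endolysosomal transporter and the most abundant ABCA member by TPM, stood at 99.8 and 93.6 CPM in the resistant line and 101.9 and 106.3 CPM in the parental line (log2 fold change -0.11, adjusted p = 0.650), and its sign turned to 0.15 after the length correction. ABCA5 and ABCA7 had log2 fold changes of 0.48 and 0.32, and ABCA5 passed with resistant replicate 2 left out (0.68, adjusted p = 0.0163). For ABCA7 the TPM went apart from the counts, at 2.55 and 5.13 TPM from 136 and 132 counts in the resistant line and 2.76 and 2.78 TPM from 81 and 76 counts in the parental line. ABCG1, a sterol exporter, had 10 and 11 counts in the resistant libraries and 3 and 4 in the parental libraries and was below the filter.

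**Figure D4:**
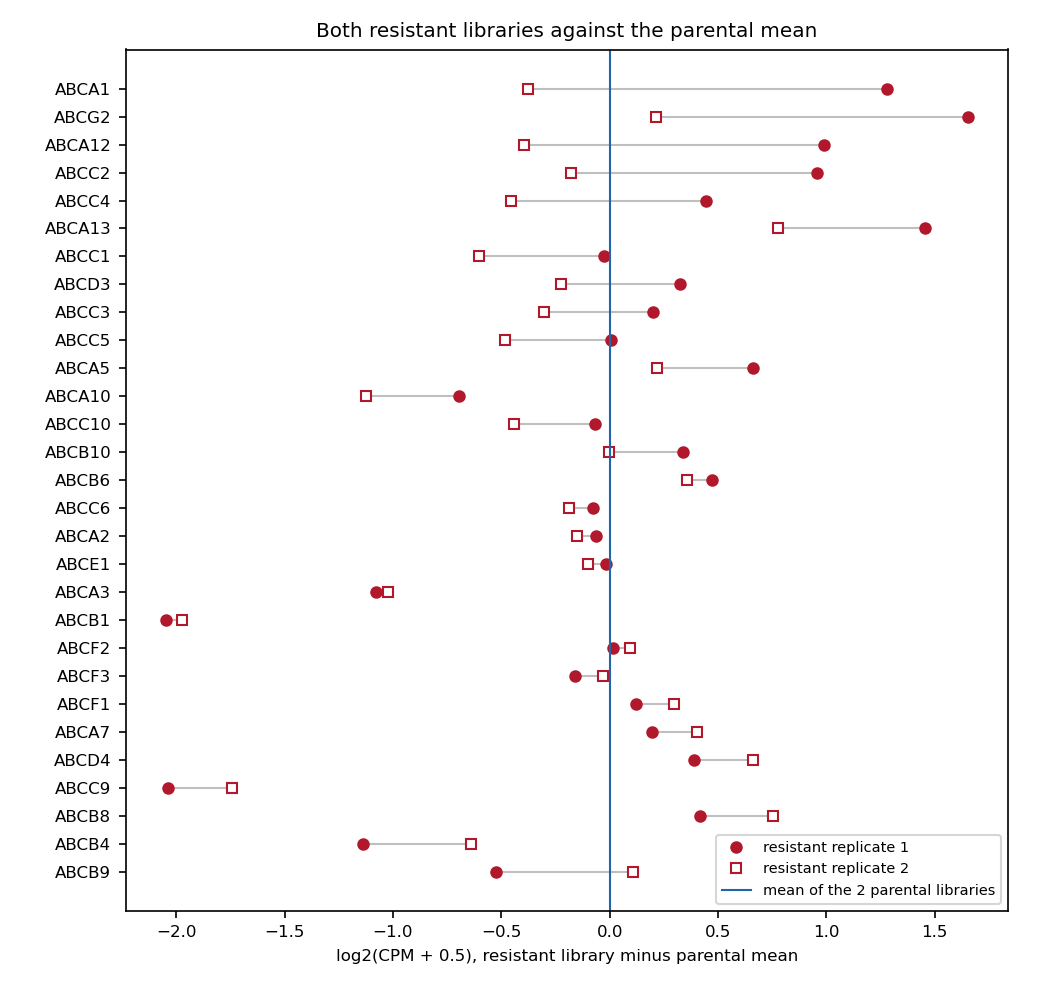
log2(CPM + 0.5) of each resistant library minus the parental mean for 29 tested members, ordered by the difference between the resistant libraries. ABCA1, ABCG2, ABCA12 and ABCC2 at the top differ by over 1 between the resistant libraries, while ABCB1 and ABCA3 differ by 0.07 and 0.05.

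The resistant libraries differed by 2-fold or more in 4 of the 31 tested members, ABCA1, ABCG2, ABCA12 and ABCC2, each higher in resistant replicate 1, where 512 of the 12792 tested genes did. The ratio of resistant replicate 1 to resistant replicate 2 was 3.19 for ABCA1, 3.14 for ABCG2, 2.67 for ABCA12 and 2.36 for ABCC2. Resistant replicate 1 was the higher of the pair in 20 of 31 members (64.5%), and in 6435 of all 12792 tested genes (50.3%). Summed over the family, TPM was 641.0 and 466.3 in the resistant line and 552.0 and 542.2 in the parental line, so the resistant libraries lay on both sides of the parental ones. The family took 0.211% and 0.159% of all counts in the resistant line and 0.176% and 0.174% in the parental line. By normalised count 7 of 31 members were lower and 9 higher in both resistant libraries than in both parental ones, 22.6% and 29.0%, where 29.7% of all tested genes were lower and 30.9% higher.

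Of the ABC transporters of mitochondria, peroxisomes and lysosomes none passed the main test. All 5 ABCB members of mitochondria and lysosomes were tested and none was called, where 6.37% of all tested genes were. Of the 5, 2, ABCB6 and ABCB8, were higher in both resistant libraries by both normalised count and TPM. By normalised count alone 30.9% of all tested genes were higher in both, and the share by both measures was not counted. ABCB8, a mitochondrial transporter tied to iron export and potassium channels, stood at 51.6 and 65.2 CPM in the resistant line and 39.3 and 37.6 CPM in the parental line (log2 fold change 0.60 ± 0.18, adjusted p = 0.101). It passed with the length correction (adjusted p = 0.0381, and 0.0323 with the replicate block added). The log2 fold change was 0.76 without resistant replicate 1 and 0.42 without resistant replicate 2. ABCB6, a porphyrin transporter, had a log2 fold change of 0.42, ABCB10, a factor in haem synthesis, one of 0.18 and ABCB9, a lysosomal peptide transporter, one of -0.18. With resistant replicate 2 left out ABCB6 passed as higher (0.47, adjusted p = 0.0478) and ABCB9 as lower (-0.54, adjusted p = 0.0153).

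ABCD4, a lysosomal transporter of cobalamin, had a log2 fold change of 0.54 (adjusted p = 0.159) and ABCD3, a peroxisomal importer of branched fatty acids, one of 0.07. ABCD4 passed with resistant replicate 1 left out (0.68, adjusted p = 0.0177).

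None of the soluble members passed. ABCE1, which recycles ribosomes, and ABCF1, ABCF2 and ABCF3 had log2 fold changes from -0.10 to 0.21. Of these 4, 0 passed, where 6.37% of all tested genes did. By TPM, ABCF2 (41.1 to 49.6), ABCF3 (39.2 to 47.5) and ABCF1 (34.7 to 41.5) followed ABCC3 in the order of mean TPM over all 4 libraries. Their ranges overlapped, so their order is not resolved. ABCF1 passed as higher in 1 of 15 alternatives, with resistant replicate 1 left out (0.30, adjusted p = 0.0121). ABCE1, ABCF2 and ABCF3 passed in none of the alternatives.

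Of 3 ABC proteins named otherwise, TAP1 and TAP2, the peptide transporter of antigen presentation, had log2 fold changes of 0.07 and 0.06 (adjusted p = 0.821 and 0.827), and CFTR, the chloride channel, was at 0.09 TPM or less. The other genes of ABC pathways came from lists set with earlier results of these data known. Of 17 tested regulators of ABC genes 2 rose, 2 fell and 13 did not pass, where 6.37% of all tested genes were called, and their median log2 fold change was -0.09. PPARG, a nuclear receptor of lipid genes, rose to 43.7 and 33.0 CPM in the resistant line, against 13.7 and 15.5 CPM in the parental line (log2 fold change 1.39, adjusted p = 0.0220), a call that ended without parental replicate 1 (0.0663) and on log2(TPM + 1) and log2(TPM + 0.1) (0.0580 and 0.0623). AHR, the aryl hydrocarbon receptor, fell to 30.6 and 21.5 CPM in the resistant line, against 72.1 and 74.6 CPM in the parental line (log2 fold change -1.49, adjusted p = 0.0188), and did not pass on log2(TPM + 1) or log2(TPM + 0.1) (0.0532 and 0.0612). The liver X receptors (LXR), which induce ABCA1 and ABCG1 when bound by oxysterols, went opposite ways. NR1H3 rose (log2 fold change 0.79, adjusted p = 0.0430) and NR1H2 fell (-0.81, adjusted p = 0.0422), and both calls ended without parental replicate 1 (0.537 and 0.417) or 2 (0.450 and 0.312). That of NR1H3 also ended on log2(TPM + 1) and log2(TPM + 0.1) (0.0697 and 0.0743). NR1I2, the xenobiotic receptor that induces ABCB1 in liver, was at 0.20 TPM or less and NR1I3 at 0.68 TPM or less.

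Of 10 tested LXR targets outside the family 2 rose, 0 fell and 8 did not pass, where 2.96% of all tested genes rose and 3.41% fell. Their median log2 fold change was 0.63, against 0.02 over all tested genes. One was NR1H3 itself, also in the regulator list, and the other was APOE, the apolipoprotein that accepts lipid, at 244.1 and 361.2 CPM in the resistant line and 86.6 and 85.1 CPM in the parental line (log2 fold change 1.82, adjusted p = 0.0129). Of 9 targets of the xenobiotic receptors 3 were tested and 1, UGT1A1, rose to 38.8 and 37.1 CPM in the resistant line, against 14.5 and 14.2 CPM in the parental line (adjusted p = 0.0125). Its count is uncertain because other UGT1A transcripts use the same downstream exons. Of 15 tested partner proteins 1 rose, 0 fell and 14 did not pass, against the same shares over all tested genes, with a median log2 fold change of -0.25. It was PDZK1, a scaffold of brush border transporters that binds ABCC2 and ABCC4, at 10.4 and 15.8 CPM in the resistant line and 2.34 and 2.71 CPM in the parental line (log2 fold change 2.37, adjusted p = 0.0167).

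Of 20 tested drug transporters outside the family, with the vault protein MVP, 1 rose, 1 fell and 18 did not pass, where 2.96% of all tested genes rose and 3.41% fell, with a median log2 fold change of 0.16. SLC47A1, a proton-coupled exporter of organic cations in the kidney, rose to 8.47 and 6.76 CPM in the resistant line, against 3.21 and 2.13 CPM in the parental line (log2 fold change 1.51, adjusted p = 0.0497). SLCO4A1, an organic anion transporter, fell to 32.1 and 31.9 CPM in the resistant line, against 63.3 and 58.4 CPM in the parental line (log2 fold change -0.93, adjusted p = 0.0257). Both calls ended without parental replicate 1 (adjusted p = 0.0626 for SLC47A1 and 0.303 for SLCO4A1) or 2 (0.338 and 0.190). Both also ended on log2(TPM + 1) and log2(TPM + 0.1), at 0.0946 and 0.117 for SLC47A1 and 0.0737 and 0.0790 for SLCO4A1, and that of SLC47A1 ended with the stricter filter (0.0529).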

How the data were processed

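RNA and H3K27ac were measured in 2 resistant and 2 parental libraries each, grouped by their titles. In the submitters' processing notes STAR, RSEM, DESeq2 1.40.2, GRCh38 and hg19 appear with no role stated. The authors deposited estimated counts (3.16% of them fractional, rounded here) and TPM for 20114 symbols, and 1 peak list per library with a score per peak, deposited without a named unit. The peak caller is not given in the sources used here. Peaks on chromosome 1 end at up to 249240417 and were read as hg19. The 28 date-like symbols altered by a spreadsheet stayed in the fit.

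Counts were filtered by filterByExpr (12792 genes), scaled by TMM and put to edgeR's quasi-likelihood test (version 4.0.16, R 4.3.3), line as the only term, with Benjamini-Hochberg adjustment over all genes at 0.05. Fold changes have the resistant line on top. CPM levels use the TMM-scaled library size. In simulated counts for 12776 genes the fit recovered 6% of 50 genes changed by 1.5-fold, 58% at 2-fold and 100% at 4-fold and 8-fold, with 7 false calls. The simulation gave all genes and both lines 1 common dispersion, and changed only genes with a mean count of 20 or more. It did not copy the wider spread of the resistant pair. The libraries of each pair differed by more than sampling noise (chi-square per gene 46.4 for the resistant and 1.93 for the parental pair). Peaks overlapping by 1 bp or more in any list were merged with Python 3.11.15. The RNA fit was repeated with library totals, with size factors from DESeq2, with a looser filter (1 count in all) and a stricter one (mean log2 CPM of 2), with the Wald test of DESeq2 1.42.0, and with limma-trend (3.58.1) on log2(TPM + 1) and log2(TPM + 0.1), keeping genes that reached 1 TPM in 2 libraries. It was also repeated with a replicate block, with a correction for effective length (lowess span 0.3, counts from 20 up), with both, at a threshold of 0.01, and without each library. The peak comparison was repeated for scores from 5 up, for the top 52367 peaks of every list, for 50% cover, for merging across 500 bp, for a window 0.1 Mb wider on each side, and without each library.

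The members and lists were chosen with earlier results of these data known. The rule named ABCB1, members past the threshold, the 10 members of highest mean TPM, and from each list up to 4 genes past the threshold or else the 2 of highest mean TPM. Other members were named beyond it, 2 members enter the fits and counts but are not reported singly here, and KCNJ8, CFTR, NR1I2, NR1I3 and the neighbours were named after their values were seen. Gene order and start windows came from RefSeq in GRCh38.p14.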

Additional observations from a re-analysis of the deposited data

How the results depend on the processing

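ABCB1 fell in all 15 alternatives. In the 9 peak alternatives 0 regions of its window were gained. Resistant replicate 1 had 0 peaks there, so no gain was possible wherever its list was used. The calls below are read against the share of all tested genes called. Library totals gave 7.07% of 12792 genes and 12.9% of 31 members, and the replicate block 14.7% and 19.4%. The length correction gave 17.4% of 12534 genes and 19.4% of 31 members, and with the block added 20.3% and 29.0%. On log2(TPM + 1) and log2(TPM + 0.1) 4.31% and 3.78% of 12172 genes were called, and 3.45% of 29 members each. The listed genes have the same background. Members called lower numbered 1 on log2(TPM + 1), on log2(TPM + 0.1) and at a threshold of 0.01, and 2 to 8 when a library was left out. Members called higher numbered 1 with library totals and with DESeq2, 2 with the replicate block, 3 with the length correction, 5 with both, and 0 to 11 when a library was left out. Over all tested genes the lower and higher calls were 715 and 576 with DESeq2, 282 and 243 on log2(TPM + 1), 243 and 217 on log2(TPM + 0.1), 1020 and 860 with the replicate block, 1223 and 962 with the length correction, 1424 and 1125 with both, 73 and 24 at a threshold of 0.01, and 264 to 3479 and 141 to 3374 when a library was left out. Listed genes outside the family that were called lower numbered 14 with DESeq2, 3 on log2(TPM + 0.1), 14 with the replicate block, 20 with the length correction, 22 with both, 0 at a threshold of 0.01 and 4 to 34 when a library was left out. Those called higher numbered 10 with DESeq2, 3 on log2(TPM + 1) and on log2(TPM + 0.1), 10 with the replicate block, 14 with block and length correction, 0 at a threshold of 0.01 and 3 to 23 when a library was left out. The window lost 0 to 2 regions when a library was left out.

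The log2 fold change changed sign with the length correction for ABCC3 (0.15, also with the block added), ABCE1 (0.0240, and 0.0235 with the block added), ABCA2 (0.15, and 0.14 with the block added) and EGFL7, an endothelial marker (-0.21 with and without the block), with library totals for ABCC3 (0.0571) and ABCE1 (0.0238), and on log2(TPM + 1) and log2(TPM + 0.1) for ABCF2 (-0.0059 and -0.0061) and EGFL7 (-0.0413 and -0.0422). When a library was left out it ran from -0.30 to 0.19 for ABCC3, -0.22 to 0.23 for EGFL7, -0.0938 to 0.21 for TAP1 and -0.0625 to 0.18 for TAP2. The cause of these shifts was not tested. The deviations of same-numbered libraries correlated at -0.05 over 12792 genes in 2 pairs, and the labels tie the numbers to no shared culture or day, so the numbers were not used as pairs in the main test. With the replicate block 1880 genes were called, against 815 without it. Whether same-numbered libraries share a batch was not tested. In the simulation, with 2 libraries a line, most changes near 1.5-fold were missed. That simulation did not copy the wider spread of the resistant pair. Changes of that size can therefore go uncalled in the data.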
